A study of Mus musculus with 12 samples.

Results

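Scavenger receptors are surface proteins, most of them of macrophages, that take up modified lipoproteins, bacterial products, dying cells and waste proteins. Marco and Msr1 are collagen-containing class A receptors, Cd36 and Scarb1 are class B receptors for fatty acids and lipoproteins, and Olr1 is the lectin-type receptor for oxidized low-density lipoprotein. Cd163 takes up haemoglobin bound to haptoglobin, Mrc1 (the mannose receptor, CD206) takes up glycoproteins, Stab2 takes up hyaluronan and is best known from sinusoidal endothelium, and Cd5l is a secreted protein of the cysteine-rich scavenger family. These 9 genes were chosen by symbol from the 38739 genes of the deposited table, and all 9 were listed in all 12 samples.

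The samples were mouse bone marrow-derived macrophages (BMDMs), which are macrophages grown in culture from bone marrow precursors, from wild-type (WT) mice and from cGAS-/- mice, which lack the cytosolic DNA sensor cGAS. The methods describe both genotypes as C57BL/6J, with males aged 8 weeks. Cells of each genotype were left in medium (UT) or given lipopolysaccharide (LPS), a component of the outer membrane of bacteria, which made 4 groups of 3 samples, named WT UT and cGAS-/- UT without LPS and WT LPS and cGAS-/- LPS with it. The labels give LPS at 100 ng/mL for 1 h, whereas the methods give 150 ng/mL for 24 h, so the time of exposure is uncertain, and the extraction step of the labels names neutrophils. The replicates are named technical by the study, and p-values therefore measure the spread between these samples and not between mice.

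Each value was read as a transcript abundance (TPM, scaled to the library total) that was averaged over the transcripts of a gene, so values compare a gene between samples but not 1 gene with another. The annotation of the genome build GRCm39 holds 1 transcript for Cd5l, 2 for Marco, 6 for Olr1, 7 for Stab2, 9 for Cd163, 39 for Scarb1 and 67 for Cd36. The sums of a sample's values lay between 447189 and 503156 in 11 samples and reached 709802 in WT LPS replicate 3, in which the pseudogene Fth-ps3 held 31.7% of the sum. That sample also stood apart from its group and was listed at 0 for 1203 of the 9855 genes tested. Cgas, the targeted gene, lay between 1.19 and 3.25 TPM in WT and between 0.0703 and 0.291 TPM in cGAS-/- samples. The macrophage marker genes, 10 of 12 listed, summed to between 20426 and 21398 TPM in WT UT and 24275 and 26021 in cGAS-/- UT samples. With LPS they summed to between 19897 and 29834 TPM in WT and 35763 and 36140 in cGAS-/- samples. Most of this sum was Lyz2, with means of 16429 TPM in WT UT and 20266 TPM in cGAS-/- UT samples. Of the 10 genes, 1 was called higher in cGAS-/- cells and 9 did not pass in UT cells, beside 0.264% of all genes that were higher and 1.55% that were lower. With LPS 2 were higher, 1 was lower and 7 did not pass, beside 1.53% and 1.07% of all genes. The 8 LPS control genes tested, among them Nfkbia and Il1b, rose with LPS in both genotypes. With LPS, the genotype comparison had 3 of the 8 higher in cGAS-/- cells and 1 lower, beside 1.53% and 1.07% of all genes, and their median log2 difference was 1.11 against 0.27 over all genes. Il1b, an inflammatory cytokine, had means of 847 TPM in cGAS-/- LPS and 110 TPM in WT LPS samples (adjusted p = 0.00789, limma). Of the other control genes, Il6, Ptgs2 and Nfkbia also lay higher in cGAS-/- LPS samples. Cxcl10 lay lower there (means of 42.5 TPM against 117 TPM in WT LPS samples), and Ccl5, Nos2 and Saa3 overlapped.

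Marco and Stab2 were known from the genotype differences in these samples, and the table does not say which values selected the others. The genotype comparisons of the 9 genes are therefore given without a test, and so is every comparison of Marco and Stab2. The LPS comparisons of the other genes were tested with limma on log2(TPM + 1), with p-values adjusted by Benjamini-Hochberg over the 9855 genes with at least 1 TPM in at least 3 samples. Of the 9 genes, 6 passed this filter (Marco, Msr1, Cd36, Scarb1, Mrc1 and Cd5l), and Marco passed it through its 6 LPS samples and 2 of its 6 UT samples. Olr1, Cd163 and Stab2 did not pass it and are given by their values.

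Among the 6 genes above the filter, the promoters of the gene that rose most (Marco) and of both genes that fell most (Mrc1 and Cd5l) are shown so that the letters can be set beside the values that follow. Each is the 250 bases before the annotated start in GRCm39, written from 5′ to 3′ on the strand of the gene. For Marco this is chr1:120432754-120433003 on the minus strand, for Mrc1 chr2:14233901-14234150 on the plus strand and for Cd5l chr3:87264932-87265181 on the plus strand. Capitals mark matches, on either strand, to a motif of NF-kB or PU.1.
Marco: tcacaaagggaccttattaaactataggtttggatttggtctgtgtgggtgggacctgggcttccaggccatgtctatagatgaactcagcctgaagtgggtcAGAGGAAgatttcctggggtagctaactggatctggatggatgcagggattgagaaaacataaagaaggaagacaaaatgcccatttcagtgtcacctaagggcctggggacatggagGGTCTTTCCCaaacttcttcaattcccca
Mrc1: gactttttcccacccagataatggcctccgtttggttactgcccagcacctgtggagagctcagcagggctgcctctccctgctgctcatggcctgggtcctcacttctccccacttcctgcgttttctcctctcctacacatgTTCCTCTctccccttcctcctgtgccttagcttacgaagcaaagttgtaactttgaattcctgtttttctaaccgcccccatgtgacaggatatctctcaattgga
Cd5l: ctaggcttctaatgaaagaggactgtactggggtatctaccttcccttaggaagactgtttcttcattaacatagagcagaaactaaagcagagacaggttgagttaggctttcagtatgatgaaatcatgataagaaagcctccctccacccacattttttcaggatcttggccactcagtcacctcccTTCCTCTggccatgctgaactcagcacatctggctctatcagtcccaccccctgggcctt

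NF-kB is a transcription factor of the LPS response, and PU.1 is a transcription factor of the myeloid lineage. A motif match for NF-kB (GGGA and CC with any 4 bases between) lay 29 to 20 bases before the start of Marco. It was also found before Cd163 and Stab2, and 18.2% of 21734 promoters of the same length held it. The PU.1 motif (AGAGGAA) was found before Marco, Mrc1 and Cd5l, in the last pair as its reverse complement, and 8.32% of the promoters held it. Marco, which rose, and Mrc1 and Cd5l, which fell, thus shared this match, and the promoters of Msr1, Cd36 and Scarb1 held none of the motifs searched. An AP-1 match (TGANTCA) was found before Olr1 alone, against 6.18% of all promoters. The antioxidant response element (TGACNNNGC, 9.68% of promoters) and the E-box bound by TFEB and TFEC (CACGTG, 6.27%) matched none of the 9. These matches describe the letters of the window and do not show that a factor binds there.

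**Figure D1:**
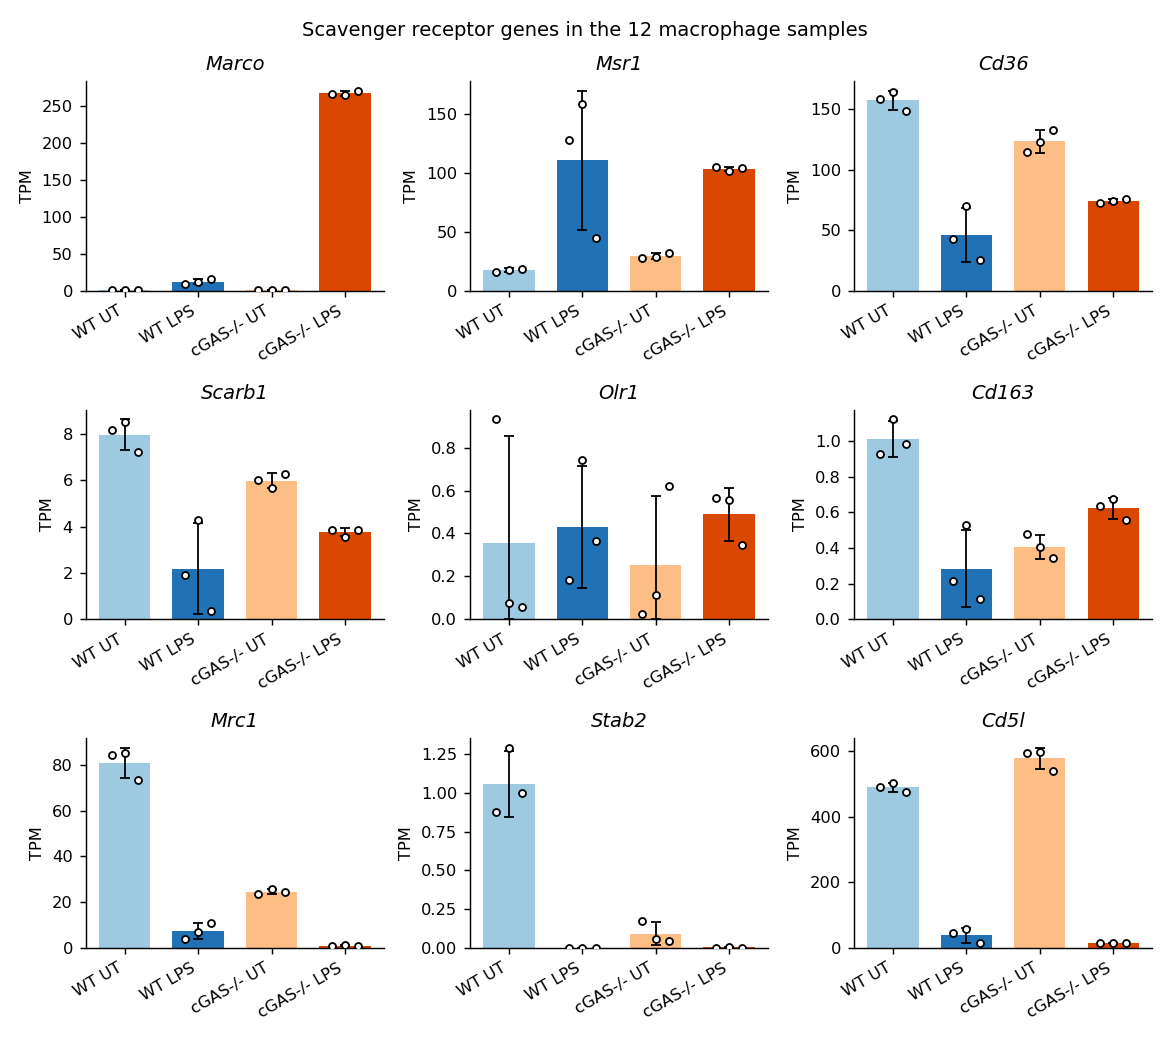
TPM of the 9 scavenger receptor genes (y axis, linear, a scale of its own for each gene) in the 4 groups (x axis). Bars are means, error bars are the SD over 3 samples, cut at 0, and points are samples. Marco is high in the 3 cGAS-/- LPS samples only, Mrc1 is lower in cGAS-/- than in WT samples in both conditions, and Stab2 is at most 0.176 TPM outside WT UT.

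Among the class A receptors, Marco was nearly silent in UT cells and reached its highest level in cGAS-/- cells with LPS. Marco (ENSMUSG00000026390, chr1:120402267-120432753, minus strand) had TPM values of 0.563, 0.480 and 0.675 in WT UT samples and 9.75, 11.6 and 15.7 in WT LPS samples. It had 0.563, 1.33 and 1.14 TPM in cGAS-/- UT samples and 265, 265 and 270 TPM in cGAS-/- LPS samples. The LPS samples lay above the UT samples in both genotypes, the cGAS-/- LPS samples lay above every WT LPS sample, and the UT samples of the genotypes overlapped. The mean of the LPS samples was 21.6 times that of the UT samples in WT cells and 263 times in cGAS-/- cells.

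With LPS, the mean Marco level was 12.3 ± 3.06 TPM in WT and 266 ± 2.86 TPM in cGAS-/- samples (SD, n = 3), a ratio of 21.6. On the log2(TPM + 1) scale, which understates the change of a gene with low values, LPS raised Marco by 3.06 ± 0.23 (SE) in WT and by 7.08 ± 0.23 in cGAS-/- cells. The genotypes differed by 0.34 in UT cells and by 4.35 with LPS, and the LPS effects differed by 4.01 ± 0.33. In 23 alternative fits the last difference lay between 3.67 and 4.19. The value in WT LPS replicate 3 was the highest of its group, and the genotype difference with LPS lay between 4.21 and 4.52 when each sample was left out in turn. Marco shares none of its 31-base stretches with another annotated gene, so its reads could be assigned to it alone.

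Msr1, the scavenger receptor for acetylated lipoproteins that resembles Marco in structure, also rose with LPS, but to similar levels in the 2 genotypes. Msr1 (chr8:40034726-40095714) had 16.0, 17.9 and 18.7 TPM in WT UT and 128, 158 and 45.1 TPM in WT LPS samples. In cGAS-/- samples it had 27.6, 28.3 and 32.2 TPM without LPS and 104, 101 and 104 TPM with it. LPS samples lay above UT samples in both genotypes, UT samples of cGAS-/- cells lay above those of WT cells, and LPS samples of the genotypes overlapped. LPS raised Msr1 by 2.41 ± 0.39 (SE) on the log2 scale in WT cells (adjusted p = 0.00110, limma) and by 1.78 ± 0.39 in cGAS-/- cells (adjusted p = 0.00873, limma). The genotype difference with LPS was 0.09, and it took the opposite sign (-0.46) without WT LPS replicate 3, whose value was the lowest of its group. Median scaling also turned it, to -0.23. In UT cells the ratio of cGAS-/- to WT was 1.68. Both class A genes were thus higher with LPS, with the genotypes 21.6 times apart for Marco and overlapping for Msr1.

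The class B receptors Cd36 and Scarb1 had lower values with LPS, and the fall passed in WT cells only. Cd36, a fatty acid translocase and receptor for oxidized lipoproteins (chr5:17986432-18094067), had 158, 164 and 149 TPM in WT UT and 42.9, 70.0 and 25.7 TPM in WT LPS samples. It had 114, 123 and 133 TPM in cGAS-/- UT and 72.7, 73.7 and 75.7 TPM in cGAS-/- LPS samples. LPS samples lay below UT samples in both genotypes. Cd36 fell in WT cells by 1.86 ± 0.31 (SE) on the log2 scale (adjusted p = 0.00145, limma). In cGAS-/- cells its log2 fold change was -0.73 ± 0.31 (adjusted p = 0.166, limma), which did not pass. Without WT LPS replicate 3, which adds to the spread shared by all groups, the adjusted p in cGAS-/- cells was 0.00488, and with the 6 WT samples alone the adjusted p in WT cells was 0.0553, so both calls depend on how the spread was estimated. The mean of cGAS-/- samples was 0.785 times that of WT in UT cells and 1.60 times that of WT with LPS, and in neither condition did the samples of the genotypes overlap.

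Scarb1, the receptor for high-density lipoprotein (chr5:125353547-125418176), also had LPS samples below UT samples. Its TPM values were 8.16, 8.51 and 7.23 in WT UT samples and 1.93, 4.27 and 0.343 in WT LPS samples. They were 6.02, 5.65 and 6.29 in cGAS-/- UT and 3.86, 3.55 and 3.84 in cGAS-/- LPS samples. This held in both genotypes, and LPS samples of the genotypes overlapped because WT LPS replicate 2 was higher than the cGAS-/- samples. The fall in WT cells was by 1.70 ± 0.38 (SE) on the log2 scale (adjusted p = 0.00731, limma), and in cGAS-/- cells the log2 fold change was -0.56 ± 0.38 (adjusted p = 0.409, limma). With the 6 WT samples alone the adjusted p was 0.0938. Without WT LPS replicate 3 the value in cGAS-/- cells had an adjusted p of 0.0413. Of the 31-base stretches of Scarb1, 5.33% occur in other genes, against 1.63% for Cd36.

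Olr1 (chr6:129462207-129484128), the remaining receptor for oxidized lipoprotein, lay between 0.0222 and 0.931 TPM in the 12 samples. Its samples overlapped in all 4 comparisons of groups, with means of 0.354 and 0.430 TPM in WT UT and WT LPS and 0.252 and 0.490 TPM in cGAS-/- UT and cGAS-/- LPS samples. At these values no difference could be read, and the number of reads behind them is unknown.

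**Figure D2:**
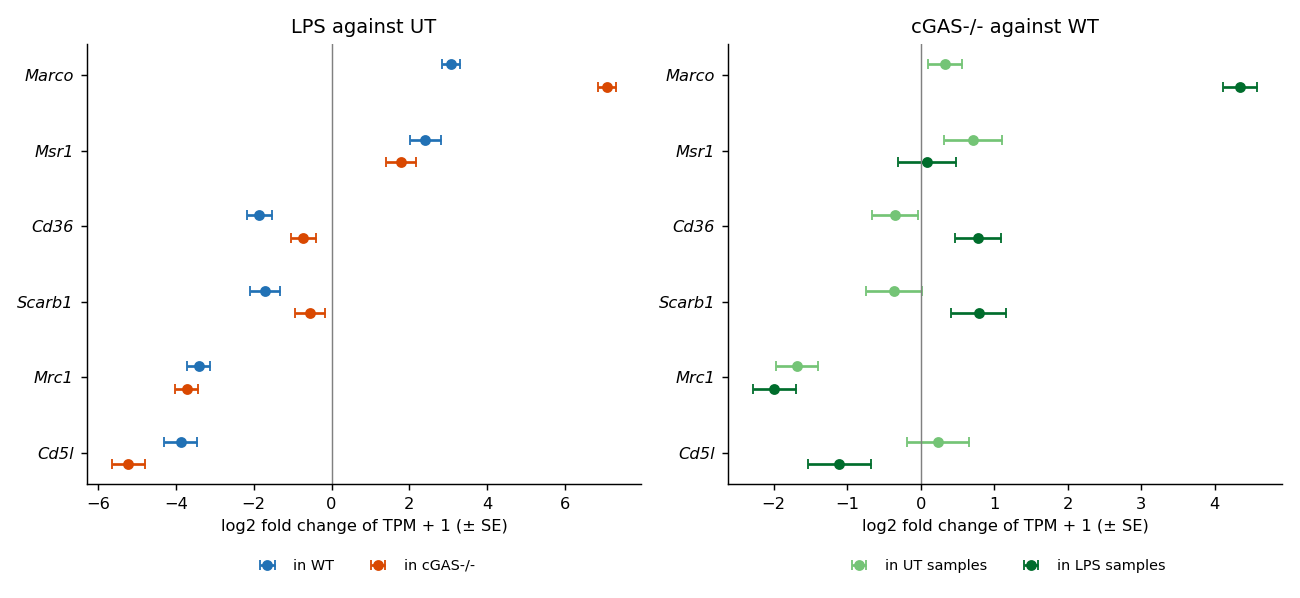
Log2 fold changes of TPM + 1 (x axis, ± SE from limma) of the 6 scavenger receptor genes above the filter. The left panel shows LPS against UT in WT (blue) and cGAS-/- cells (orange), and the right panel cGAS-/- against WT in UT (light green) and LPS samples (dark green). Marco reaches 7.08 with LPS in cGAS-/- cells, and Mrc1 lies at -1.68 and -1.99 in the 2 genotype comparisons.

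Of the 6 genes above the filter, Mrc1 and Cd5l had the steepest falls. Mrc1 (chr2:14234151-14336926) had 84.3, 85.2 and 73.4 TPM in WT UT and 3.85, 6.89 and 10.9 TPM in WT LPS samples. It had 23.5, 25.6 and 24.3 TPM in cGAS-/- UT and 0.860, 1.10 and 0.857 TPM in cGAS-/- LPS samples. Groups did not overlap in any of the 4 comparisons: LPS samples were lower than UT samples, and cGAS-/- samples were lower than WT samples. LPS lowered Mrc1 in WT cells, where it fell by 3.41 ± 0.29 (SE) on the log2 scale (adjusted p = 1.63e-05, limma). In cGAS-/- cells it fell by 3.72 ± 0.29 (adjusted p = 8.72e-06, limma).

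The mean of Mrc1 in WT was 3.31 times that in cGAS-/- cells without LPS and 7.68 times with LPS. The log2 differences were -1.68 and -1.99, so Mrc1 was already lower in UT cells of the knockout, unlike Marco, whose UT samples overlapped. The difference between the LPS effects was -0.31 and changed sign with a pseudocount of 5 (0.54), so no direction is given to it. Marco and Mrc1 stood at opposite ends in cGAS-/- LPS samples: Marco was at its highest in the series and Mrc1 at its lowest.

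Cd5l, also called AIM, which circulates with IgM and supports macrophage survival (chr3:87265182-87278380), had 489, 504 and 477 TPM in WT UT and 43.6, 57.9 and 13.2 TPM in WT LPS samples. It had 594, 598 and 541 TPM in cGAS-/- UT and 14.7, 15.5 and 13.4 TPM in cGAS-/- LPS samples. The LPS samples were lower than the UT samples in both genotypes. Cd5l fell by 3.88 ± 0.43 (SE) on the log2 scale in WT (adjusted p = 8.86e-05, limma) and its log2 fold change was -5.22 ± 0.43 in cGAS-/- cells (adjusted p = 1.09e-05, limma). The log2 fold change in WT cells was -3.26 without WT LPS replicate 3. The UT samples of cGAS-/- cells lay above those of WT cells by a ratio of 1.18. With LPS, WT replicates 1 and 2 lay above the cGAS-/- samples and WT replicate 3 lay below them, and the log2 difference was -1.11. With each sample left out in turn it lay between -1.72, without WT LPS replicate 3, and -0.70.

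The averaged values of Cd163 and Stab2 did not exceed 1.29 TPM in any sample, which does not set their level beside that of another gene. Cd163 (chr6:124281606-124307560) had 0.925, 1.12 and 0.981 TPM in WT UT and 0.215, 0.528 and 0.112 TPM in WT LPS samples. It had 0.477, 0.405 and 0.342 TPM in cGAS-/- UT and 0.635, 0.675 and 0.556 TPM in cGAS-/- LPS samples. LPS samples were below UT samples in WT cells and above them in cGAS-/- cells, and cGAS-/- samples were below WT samples without LPS and above them with LPS. No test was run at these levels, which were at or under 1.12 TPM.

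Stab2 (chr10:86675054-86843889) had 0.879, 1.29 and 0.999 TPM in WT UT samples and was listed at 0 in all 3 WT LPS samples. It had 0.176, 0.0550 and 0.0427 TPM in cGAS-/- UT samples and 0, 0.00644 and 0 TPM in cGAS-/- LPS samples. The WT UT samples lay above the cGAS-/- UT samples, with a ratio of means of 11.6, and the LPS samples of the genotypes overlapped at or near 0. Of the 31-base stretches of Stab2, 3.46% also occur in Gm16268. The 9 endothelial marker genes, which do not include Stab2, summed to between 10.5 and 11.5 TPM in WT UT and between 8.02 and 8.84 TPM in cGAS-/- UT samples, and Clec4g, a marker of sinusoidal endothelium, was at 0 in all 12 samples. Eng, Vwf and Cdh5 lay lower in cGAS-/- UT than in WT UT samples. Kdr lay higher (means of 0.929 against 0.551 TPM), and the other markers overlapped. Of the 4 tested, limma called 0 between genotypes in UT cells, and 1 had an unadjusted p under 0.05, beside 7.36% of all genes.

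The summed levels of markers of other cell types lay apart between genotypes for some lists and overlapped for others. The B cell marker genes, 6 of 7 listed, summed to between 65.9 and 98.4 TPM in WT UT, 30.1 and 39.5 in WT LPS, 4.52 and 11.1 in cGAS-/- UT and 2.71 and 7.66 in cGAS-/- LPS samples. The neutrophil markers, 8 of 8 listed, summed to between 154 and 225 TPM in WT UT, 67.7 and 382 in WT LPS, 71.3 and 140 in cGAS-/- UT and 71.3 and 89.9 in cGAS-/- LPS samples. Of the 6 neutrophil markers tested, 2 were called lower and 0 higher in cGAS-/- UT cells, beside 1.55% and 0.264% of all genes. With LPS limma called 0, and 1 had an unadjusted p under 0.05, beside 20.2% of all genes. The granule gene Ngp had means of 27.6 TPM in WT UT and 2.0 TPM in cGAS-/- UT samples, and Camp had 3.06 and 0.217 TPM, whereas Csf3r, the receptor of the growth factor G-CSF, had 12.7 and 17.5 TPM. S100a8 (49.9 and 33.1 TPM) and S100a9 (84.9 and 49.3 TPM), the largest parts of the sum, overlapped between genotypes in UT samples. The stromal markers, 6 of 7 listed, summed to between 7.31 and 9.26 TPM in WT UT against 2.07 and 3.84 in cGAS-/- UT samples, and to between 5.86 and 17.1 in WT LPS against 2.80 and 3.91 in cGAS-/- LPS samples. The dendritic cell markers, 7 of 7 listed, summed to between 7.36 and 7.67 TPM in WT UT against 4.39 and 6.32 in cGAS-/- UT samples and overlapped with LPS. Of the stromal and dendritic markers, 4 and 1 were tested, and limma called 0 of either between genotypes. At an unadjusted p under 0.05 there were 4 of the 4 stromal markers in UT cells and 3 with LPS, and 0 of the dendritic ones, beside 7.36% and 20.2% of all genes. The summed levels of the 7 erythroid and the 6 T and NK cell markers overlapped between genotypes in both conditions. In bulk RNA, fewer cells of a type and less RNA per cell cannot be told apart, and the part of these cells in the genotype differences of Mrc1, Stab2 and Marco was not tested. The genes of tissue-resident macrophages, 9 of 10 listed, summed to between 196 and 222 TPM in WT UT, 78.5 and 293 in WT LPS, 156 and 168 in cGAS-/- UT and 140 and 154 in cGAS-/- LPS samples. Of the 6 tested, 2 rose with LPS in WT and 3 in cGAS-/- cells, beside 4.86% and 5.56% of all genes. In each condition 1 was lower in cGAS-/- cells, beside 1.55% of all genes in UT cells and 1.07% with LPS, and Clec4f and Cd209b were at 0 in all 12 samples.

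Read against all genes, LPS called 4.86% of the 9855 tested genes higher and 25.9% lower in WT cells, and 5.56% higher and 10.2% lower in cGAS-/- cells. Under median scaling the shares were 10.6% and 11.1% in WT and 9.04% and 9.22% in cGAS-/- cells. Without WT LPS replicate 3 they were 9.40% and 30.1% in WT and 10.8% and 24.8% in cGAS-/- cells. Of the 5 genes tested here, 1 was higher in each genotype (Msr1), 4 were lower in WT cells (Cd36, Scarb1, Mrc1 and Cd5l) and 2 in cGAS-/- cells (Mrc1 and Cd5l). With LPS, the median log2 fold change over the tested genes was -0.55 in WT and -0.22 in cGAS-/- cells. Median scaling brought these medians to 0.02 and 0.00, and under it none of the 6 scavenger receptor genes fitted changed direction in an LPS comparison. Between genotypes, 0.264% of genes were called higher in cGAS-/- and 1.55% lower in UT cells, and 1.53% higher and 1.07% lower with LPS. The LPS effect was called greater in cGAS-/- cells for 0.771% of genes and smaller for 0.203%. The genotype comparisons were not tested for the 9 genes, and nothing is read from these shares for them.

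Of 27 other scavenger receptor genes, 16 were listed and 8 were above the filter. The 8 include Tlr4, which is the signalling receptor of LPS and not a scavenger receptor, and it enters the counts and medians below. With LPS, 2 of the 8 rose and 3 fell in WT cells, and 2 rose and 2 fell in cGAS-/- cells. The numbers became 3 and 4 in WT and 3 and 5 in cGAS-/- cells without WT LPS replicate 3, where the shares of all genes called also rose, as given above. The median log2 fold change of the 8 was -1.40 in WT and -0.80 in cGAS-/- cells, against -0.55 and -0.22 over all genes. Lgals3bp, a secreted protein of the same cysteine-rich family as Cd163 and Cd5l, rose by 2.67 ± 0.35 (SE) on the log2 scale in WT (adjusted p = 0.000318, limma) and by 2.39 ± 0.35 in cGAS-/- cells (adjusted p = 0.000784, limma). Cxcl16, a membrane-bound chemokine that takes up oxidized lipoprotein, rose in WT cells (1.18 ± 0.29, adjusted p = 0.0123, limma) and had a log2 fold change of 0.88 in cGAS-/- cells (adjusted p = 0.0662), where it was called without WT LPS replicate 3. Scarf1, a class F receptor, rose in cGAS-/- cells (1.19 ± 0.36, adjusted p = 0.0424, limma), a call that 13 of 24 alternative fits did not repeat, and it was called higher in WT cells under median scaling, under quantile normalization and without WT LPS replicate 3.

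Clec7a, the beta-glucan receptor dectin-1, fell most within this list. Its TPM values were 52.4, 51.4 and 49.6 in WT UT and 3.62, 3.50 and 0.395 in WT LPS samples, and 50.6, 43.4 and 50.7 in cGAS-/- UT samples. In cGAS-/- LPS samples the mean was 2.27 ± 0.469 TPM (SD, n = 3), and LPS samples lay below UT samples in both genotypes. The log2 fold change was -4.08 ± 0.39 in WT (adjusted p = 3.50e-05, limma) and -3.92 ± 0.39 in cGAS-/- cells (adjusted p = 5.28e-05, limma). Cd68, a lysosomal glycoprotein of macrophages, fell in both genotypes, with log2 fold changes of -1.67 in WT (adjusted p = 0.00612, limma) and -2.12 in cGAS-/- cells (adjusted p = 0.00192, limma). Lrp1, an endocytic receptor for many ligands, fell by 2.53 in WT cells (adjusted p = 0.00909, limma) and had a log2 fold change of -1.79 in cGAS-/- cells (adjusted p = 0.0649). The WT value was -1.67 without WT LPS replicate 3 and -3.25 without replicate 2, and without either of them Lrp1 was called lower in cGAS-/- cells too. The calls of Cd68, Cxcl16 and Lrp1 in WT cells were lost when the 6 WT samples were fitted alone (adjusted p = 0.0917, 0.152 and 0.0936). Scarb2 and Tlr4 passed in no comparison at the settings used throughout. Both were called lower with LPS in cGAS-/- cells without WT LPS replicate 3, with sample weights and with the 6 samples alone. In WT cells Scarb2 was called lower in 5 of 24 alternative fits (a pseudocount of 5, sample weights, rescaling to a common total, and without WT LPS replicate 2 or 3), and Tlr4 in 1, without replicate 2.

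Between genotypes, limma called 0 of the 8 other scavenger receptors in UT cells, 0 with LPS and 0 for the difference of LPS effects. At an unadjusted p under 0.05 the numbers were 0, 1 and 0, against 7.36%, 20.2% and 11.1% of all genes. With LPS the call was gained by Cd68, Clec7a and Tlr4 (lower) without WT LPS replicate 3, and by Lrp1 and Scarf1 (higher) without WT LPS replicate 2, so the samples of that group decide whether these genes differ. Over all genes, 5.05% were called lower without replicate 3 and 29.2% higher without replicate 2, a share near that of 2 of 8. For the difference of LPS effects it was gained by Cd68 (lower) without replicate 3 and by Scarf1 (higher) without replicate 2, beside 1.99% and 14.6% of all genes. These genes were picked out after their values were seen. With sample weights, Lgals3bp (lower) and Lrp1 (higher) were called in UT cells, beside 1414 of all 9855 genes called in either direction. Both were also called with the 6 UT samples alone, beside 1225 of all genes. Under the weights, Cd68 (lower) was called with LPS and for the difference of LPS effects, beside 292 of all genes in each.

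**Figure D3:**
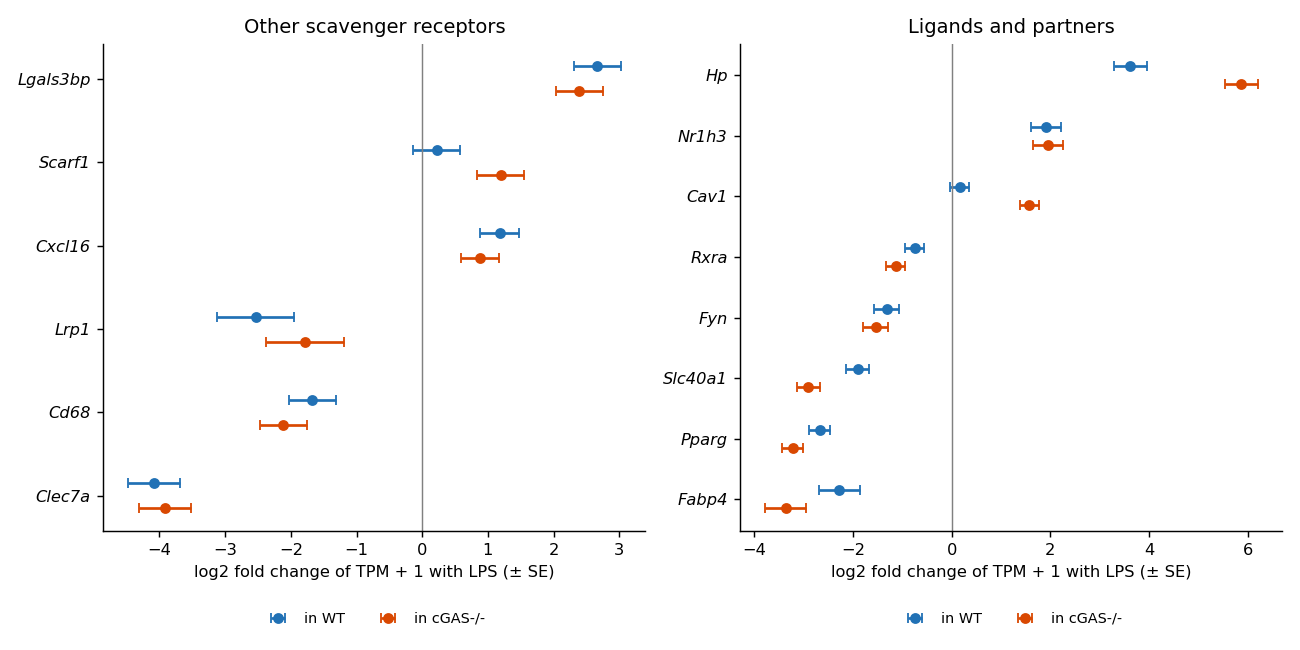
Log2 fold changes of TPM + 1 with LPS (x axis, ± SE from limma) in WT (blue) and cGAS-/- cells (orange). The left panel shows the 6 other scavenger receptors that passed in at least 1 comparison and the right panel 8 ligands and partners. Clec7a, Cd68, Pparg, Slc40a1 and Fabp4 fall in both genotypes, whereas Hp and Cav1 lie farther to the right in cGAS-/- cells.

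The ligands, lipid-handling proteins and signalling partners of these receptors formed a list of 34 genes, of which 28 were listed and 24 were above the filter. In WT cells 4 rose and 6 fell with LPS, and in cGAS-/- cells 6 rose and 6 fell, beside 4.86% and 25.9% of all genes in WT and 5.56% and 10.2% in cGAS-/- cells. The numbers were 9 and 8 in WT and 12 and 8 in cGAS-/- cells without WT LPS replicate 3, beside 9.40% and 30.1% and 10.8% and 24.8% of all genes. Hp encodes haptoglobin, the plasma protein that delivers haemoglobin to Cd163. Its TPM values were 2.09, 0.596 and 0.587 in WT UT, 30.4, 24.9 and 16.8 in WT LPS, 0.497, 0.449 and 1.502 in cGAS-/- UT and 111, 99.8 and 95.7 in cGAS-/- LPS samples. Hp rose by 3.62 ± 0.33 (SE) on the log2 scale in WT (adjusted p = 2.65e-05, limma) and by 5.87 ± 0.33 in cGAS-/- cells (adjusted p = 1.12e-06, limma). With LPS it was higher in cGAS-/- than in WT cells by 2.08 (adjusted p = 0.00789, limma), a call lost in 3 of 24 alternative fits, and the difference of LPS effects, 2.25, had an adjusted p of 0.0533 and was called in 5 of 23 alternatives, among them the fits without WT LPS replicate 1, 2 or 3. The receptor of Hp, Cd163, stayed at or under 0.675 TPM in the cGAS-/- LPS samples in which Hp was highest.

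Cav1, which encodes the coat protein of caveolae where Cd36 and Scarb1 can reside, had 1.97, 2.64 and 1.39 TPM in WT LPS and 7.18, 5.42 and 5.85 TPM in cGAS-/- LPS samples. It rose with LPS in cGAS-/- cells by 1.57 ± 0.20 on the log2 scale (adjusted p = 0.000229, limma) and had a log2 fold change of 0.16 in WT cells (adjusted p = 0.542). Cav1 was higher in cGAS-/- than in WT cells with LPS by 1.27 (adjusted p = 0.00647, limma), a call lost with the 6 LPS samples alone and with sample weights (adjusted p up to 0.379). The difference of LPS effects was 1.41 (adjusted p = 0.0423, limma), and 17 of 23 alternative fits did not call it.

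The other 6 named partners passed with LPS in both genotypes. Pparg, the nuclear receptor that induces Cd36, fell with log2 fold changes of -2.68 in WT (adjusted p = 1.20e-05, limma) and -3.23 in cGAS-/- cells (adjusted p = 3.33e-06, limma). Fabp4, a fatty acid carrier, fell as well (-2.28 in WT and -3.37 in cGAS-/- cells, adjusted p = 0.00242 and 0.000220, limma), and the WT call was lost with the 6 WT samples alone (adjusted p = 0.0549), with a value of -1.68 without WT LPS replicate 3. Rxra, the partner of Pparg, fell (-0.75 and -1.13, adjusted p = 0.0141 and 0.00190, limma), and its WT call was lost under median scaling and 3 other settings. Nr1h3, the oxysterol receptor LXR-alpha, went the other way and rose (1.91 and 1.96, adjusted p = 0.00109 and 0.00115, limma). Slc40a1, the iron exporter ferroportin, fell (-1.91 and -2.91, adjusted p = 0.000215 and 1.13e-05, limma). Fyn, a kinase that acts downstream of Cd36, fell (-1.31 and -1.54, adjusted p = 0.00326 and 0.00148, limma), and its WT call was lost with the 6 WT samples alone (adjusted p = 0.0627). Between genotypes none of these 6 genes was called by limma, and over the 24 partners an unadjusted p under 0.05 was found for 3 genes in UT cells and 7 with LPS, against 7.36% and 20.2% of all genes. In UT cells, 6 of 24 alternative fits called Slc40a1 higher in cGAS-/- cells, the fit without WT LPS replicate 3 among them, 2 called Fyn higher and 1, with sample weights, called Pparg higher. Without WT LPS replicate 3, however, Pparg, Fabp4, Nr1h3 and Slc40a1 were called lower in cGAS-/- than in WT cells with LPS. Over the 24 partners, 3 were called higher and 8 lower in that fit, beside 4.83% and 5.05% of all genes. Without WT LPS replicate 2, 7 were called higher, none of them among these 6, and 0 lower, beside 29.2% and 4.23% of all genes. For the difference of LPS effects, Pparg, Fabp4 and Slc40a1 were called (lower in cGAS-/- cells) without replicate 3. There 4 of the 24 were higher and 6 lower, beside 3.60% and 1.99% of all genes. Without replicate 2, 7 were higher and 0 lower, beside 14.6% and 1.42%.

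The genes whose levels most resembled that of Marco over the 12 samples, by Pearson correlation of log2(TPM + 1), were 4930440I19Rik (r = 0.988), Slc7a2 (0.978), Dner (0.970), Il6 (0.969), Vnn3 (0.966) and Rnf24 (0.965). The samples form 4 groups, so these values describe the order of groups and are given with no p. Their high values in cGAS-/- LPS samples follow from this choice, and Dner and Rnf24 passed the filter through those 3 samples alone. Slc7a2, a transporter of cationic amino acids, had means of 0.285 and 4.43 TPM in WT UT and WT LPS samples and of 0.688 and 32.5 TPM in the corresponding cGAS-/- samples. Il6, an inflammatory cytokine, had means of 0.0947, 0.801, 0.0562 and 14.3 TPM in the same order. Without WT LPS replicate 3 the r of these genes lay between 0.969 and 0.993, and Dner, Vnn3 and Rnf24 left the leading 6. Among the scavenger receptors, Msr1 had an r of 0.788 with Marco, and Cd5l and Mrc1 had -0.917 and -0.936.

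**Figure D4:**
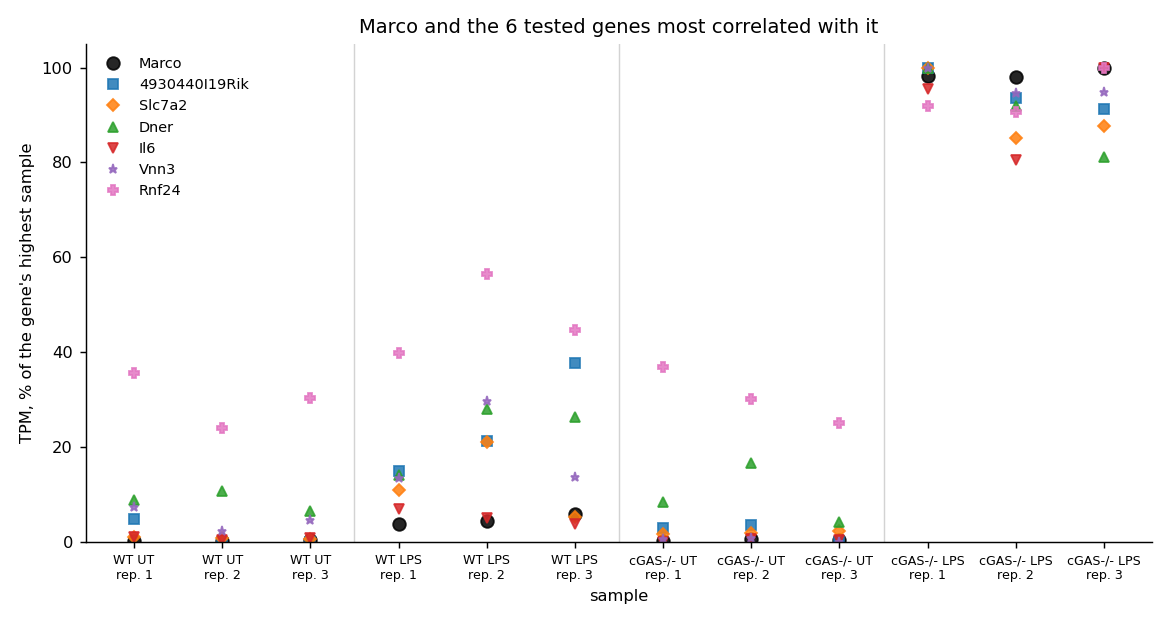
TPM of Marco and of the 6 tested genes with the highest Pearson r with it (y axis, as % of each gene's highest sample) in the 12 samples (x axis). All 7 genes are highest in the 3 cGAS-/- LPS samples, and Marco is at most 15.7 TPM elsewhere.

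The genes around Marco on chromosome 1 did not share its pattern. Steap3, a metalloreductase of iron uptake that lies 201.8 kb away, had means of 12.4 TPM in WT UT and 1.85 in WT LPS and of 10.0 TPM in cGAS-/- UT and 1.29 in cGAS-/- LPS samples. It fell with LPS (log2 fold change -2.35) in WT (adjusted p = 0.000256, limma) and (-2.27) in cGAS-/- cells (adjusted p = 0.000352, limma), whereas Marco rose. En1, 97.36 kb away on the other side, reached at most 4.01 TPM and passed in no comparison. The other 4 of the 6 nearest listed genes (C1ql2, 1700012E03Rik, 2610027F03Rik and Gm29346) were listed at 0 in all 12 samples.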

How the data were processed

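RNA of 12 BMDM samples was sequenced as stranded mRNA libraries. The authors used STAR for mapping to GRCm39 and kallisto for quantification (fastp is also named in the submitters' processing notes; versions are not given in the sources used here). The deposited values were taken as TPM that the authors averaged over the transcripts of a symbol, which was inferred from their decimals. Read numbers are unknown, so no counting interval is given, and no count model was run. Of the annotated protein-coding genes, the table used here lists between 80.4% and 97.5% on each of chromosomes 1 to 12, 69.1% on chromosome 13 and 1 gene of X. It lists no such gene of chromosomes 14 to 19, of Y or of the mitochondrial genome.

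Samples were grouped by the labels' genotype and treatment. Limma 3.58.1 (R 4.3.3) was fitted to log2(TPM + 1) of all 12 samples with a mean per group and a variance trend, for genes with at least 1 TPM in at least 3 samples. Benjamini-Hochberg adjusted p under 0.05 was the threshold, and the study's further threshold of a log2 fold change beyond 2 was an alternative. The fit was tested on simulated data. Other alternatives were pseudocounts of 0.1 and 5, no filter or 5 TPM, median and quantile scaling, the 6 samples compared alone, a replicate block, sample weights, no trend and each sample left out. A pair of rescalings to a common total was added after the data were seen.

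The 9 genes, lists and motifs were chosen with earlier results of these data known. The genes named from lists are other scavenger receptors that passed in at least 1 comparison, the 8 partners that passed in most comparisons (ties by the smallest adjusted p), the 6 most correlated with Marco and its nearest 6 neighbours. Coordinates, promoters and shared 31-base stretches come from GRCm39 with its GENCODE annotation. One gene of the lists is not reported here.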

Additional observations from a re-analysis of the deposited data

Results flagged for a closer look

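The LPS samples of Cd163 lay below its UT samples in WT and above them in cGAS-/- cells, at low values behind which the number of reads is unknown. Its LPS to UT ratio of mean TPM was 0.282 in WT and 1.52 in cGAS-/- cells, and its cGAS-/- to WT ratio was 0.404 in UT and 2.18 in LPS samples, with no overlap between the groups in any of the 4 comparisons. The difference was not tested, since every value was at or under 1.12 TPM. For Cd36, the cGAS-/- to WT ratio of mean TPM was 0.785 in UT and 1.60 in LPS samples, again without overlap, and the difference was not tested here because its genotype comparisons are described only. For Cav1, limma's test of the difference between LPS effects gave 1.41 on the log2 scale (adjusted p = 0.0423), with adjusted p between 0.00379 and 0.151 over 23 alternatives.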

How the results depend on the processing

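Counts of genes called over the whole table depended on the setting, given here in the order LPS in WT, LPS in cGAS-/-, genotype in UT, genotype with LPS and difference of LPS effects (comparisons 1 to 5). The counts were 3032, 1558, 179, 256 and 96. Leaving out each sample in turn gave 1807 to 5304, 998 to 3506, 95 to 579, 83 to 3296 and 44 to 1574. The highest counts came without WT LPS replicate 2 in comparisons 1, 4 and 5 (5304, 3296 and 1574) and without WT LPS replicate 3 in the others (3506 and 579). The 6 samples alone gave 742, 5024, 1225 and 8 in comparisons 1 to 4, and a fold change beyond 2 as well gave 521, 416, 44, 73 and 50. A filter of 5 TPM gave 1729, 1030, 74 and 49 in comparisons 1, 2, 3 and 5. Weights per sample gave 5417, 1414 and 292 in comparisons 2, 3 and 5. A pseudocount of 0.1 gave 76, 157 and 27 in comparisons 3 to 5, a pseudocount of 5 gave 196 in comparison 5, median scaling gave 517 in comparison 4, and quantile normalization gave 601 and 173 in comparisons 4 and 5. Median scaling split the LPS calls into 1046 higher and 1090 lower in WT and 891 and 909 in cGAS-/- cells, against 479 and 2553 and 548 and 1010. The cause of these shifts was not tested.

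Same-numbered samples of different groups did not deviate together (correlations between -0.035 and 0.047 over 18 pairs), so the replicate numbers do not pair them. With a replicate block the counts were 2753, 1380, 134, 180 and 52, and no call of Msr1, Cd36, Scarb1, Mrc1 or Cd5l with LPS changed under the block.

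Among the 6 scavenger receptor genes fitted, the genotype difference of Msr1 with LPS reversed to -0.23 under median scaling and to -0.31 with weights, and lay between -0.46 and 0.44 with a sample left out. The difference of LPS effects for Mrc1 reversed to 0.54 with a pseudocount of 5 and to 0.092 with weights, and lay between -0.64 and 0.0060 with a sample left out. Cd36 and Scarb1 in WT cells lost their call with the 6 samples alone. In cGAS-/- cells each gained it there, with weights and without WT LPS replicate 3, and Cd36 also did without WT LPS replicate 2 and under quantile normalization. Msr1, Mrc1 and Cd5l kept their LPS calls in both genotypes under the 24 alternatives other than a fold change beyond 2, which Msr1 in cGAS-/- cells (1.78) and Cd36 and Scarb1 in WT cells (-1.86 and -1.70) did not reach. Depth cannot be set beside these values, since read numbers are unknown, and 3 samples a group limit them.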
